A study of Mus musculus with 2 samples.

Results

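The mouse genes with symbols Zfp400 to Zfp999 encode zinc finger proteins, most of them of unknown function. Members were all genes with a transcript annotated protein_coding and a symbol of Zfp followed by 3 digits, the first of them from 4 to 9, which gave 235 of 21901 genes with such a transcript. The rule used the symbol and the transcript type and no measured value. Another 159 genes carry other Zfp symbols and served for comparison.

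RNA was depleted of ribosomal RNA and sequenced from the nucleoplasmic fraction, the soluble part of the nucleus, of macrophages of strain C57BL/6J that were grown in culture from bone marrow precursors. All cells had been stimulated for 90 min with 100 ng/ml lipid A, the membrane anchor of lipopolysaccharide and a ligand of TLR4, and unstimulated cells were not analysed here. The labels name 1 group of 2 biological replicates with the same donor entry, and give no age, so the spread between the libraries may be partly technical. With 1 group there is no test between conditions, and every statement here is a description of these 2 libraries.

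A classical zinc finger is a short fold in which a pair of cysteines and a pair of histidines hold a zinc ion, and arrays of such fingers read DNA sequence. Many of these proteins also carry a KRAB domain, which recruits the corepressor TRIM28 (KAP1), the histone methyltransferase SETDB1 and heterochromatin proteins. KRAB zinc finger genes lie in clusters that grew by duplication, and a large part of the family binds and silences transposable elements. Other members do not repress through KRAB and act in ribosome quality control, RNA metabolism or lineage choice.

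Replicate 1 held 22669533 estimated counts and replicate 2 held 14939143, and the starting RNA was 1 µg and 500 ng. TPM (transcript abundance scaled for length and library) of all features sums to the same total in each library. Features with an effective length under 200 bases took 73.9% and 57.0% of all TPM, so TPM of longer genes ran higher in replicate 2, by a median of 0.39 on the log2 scale. Coding genes near 1 TPM carried a median of 72 and 31 counts. All 10 macrophage markers reached 1 TPM in both libraries, with medians of 161 and 230 TPM. Of the markers of T and NK cells, B cells, mast cells, erythroid cells and stromal or endothelial cells, none reached 1 TPM in both libraries. Among the 5 neutrophil markers S100a9 did, at 1.59 and 1.54 TPM, and among the 3 dendritic cell markers Zbtb46 did, at 1.05 and 2.12 TPM. Neutrophil Ly6g and Elane, T cell Cd3e and Cd3g and erythroid Hba-a1 and Klf1 were at 0 counts in both. In such bulk RNA, fewer cells with a transcript and less of it per cell cannot be told apart.

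The unit that defines the family is shown first. The stretch below encodes 1 zinc finger of Zfp445 with the linker to the next finger, and the capitals mark the codons of its zinc-binding cysteines and histidines (GRCm38, chr9:122852886-122852969, minus strand, an exon of Zfp445-206 from GENCODE release M21). In the first quantification, Zfp445 was the member with a KRAB-like match at the highest mean level.

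Zfp445 finger: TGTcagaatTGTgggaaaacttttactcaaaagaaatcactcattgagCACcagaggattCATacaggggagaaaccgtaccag

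Copies of such units make parts of the family hard to tell apart in short reads. The next 4 stretches are a finger of Zfp968 and its closest counterpart in 3 genes of the same region of chromosome 2, all 84 bases long, and capitals mark the bases that differ from Zfp968. The positions in GRCm38 are chr2:175382283-175382366 (plus strand) for Zfp968, chr2:175921196-175921279 (minus) for Zfp966, chr2:176680371-176680454 (plus) for Zfp973 and chr2:175479834-175479917 (plus) for Zfp965. Zfp966 did not differ from Zfp968 in this stretch, and Zfp973 and Zfp965 differed by 1 base each, at the same place.

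Zfp968: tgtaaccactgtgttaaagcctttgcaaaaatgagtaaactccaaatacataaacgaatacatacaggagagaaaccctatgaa
Zfp966: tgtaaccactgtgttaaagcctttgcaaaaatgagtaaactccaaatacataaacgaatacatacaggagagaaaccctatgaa
Zfp973: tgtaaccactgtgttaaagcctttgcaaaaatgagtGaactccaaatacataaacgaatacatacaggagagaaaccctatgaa
Zfp965: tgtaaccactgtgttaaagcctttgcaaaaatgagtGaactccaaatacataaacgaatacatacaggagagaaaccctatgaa

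Promoters of the family range from CpG islands to sequence with almost no CpG. The next 4 windows run from 250 bases before to 50 after a transcription start (RefSeq, GRCm38.p6), with each CG in capitals. They were picked by level and CpG count. Zfp740 (chr15:102203750-102204049, plus strand) had the most CpG, 54, among members at 5 TPM or more in both libraries, at 5.68 and 9.50 TPM. Zfp931 (chr2:178078376-178078675, minus strand) had the fewest, 3, among members whose mean was 5 TPM or more, at 2.93 and 7.84 TPM. Zfp618 (chr4:62965317-62965616, plus strand) had the most, 59, among members without a count in either library. Zfp735 (chr11:73688528-73688827, plus strand) had the fewest, 2, among those without a count.

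Zfp740: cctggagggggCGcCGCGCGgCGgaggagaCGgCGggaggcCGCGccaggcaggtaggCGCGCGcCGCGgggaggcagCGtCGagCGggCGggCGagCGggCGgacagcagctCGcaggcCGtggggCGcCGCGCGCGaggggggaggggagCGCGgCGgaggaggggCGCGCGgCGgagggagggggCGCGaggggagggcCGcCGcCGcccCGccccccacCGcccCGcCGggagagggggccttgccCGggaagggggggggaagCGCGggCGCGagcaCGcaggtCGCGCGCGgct
Zfp931: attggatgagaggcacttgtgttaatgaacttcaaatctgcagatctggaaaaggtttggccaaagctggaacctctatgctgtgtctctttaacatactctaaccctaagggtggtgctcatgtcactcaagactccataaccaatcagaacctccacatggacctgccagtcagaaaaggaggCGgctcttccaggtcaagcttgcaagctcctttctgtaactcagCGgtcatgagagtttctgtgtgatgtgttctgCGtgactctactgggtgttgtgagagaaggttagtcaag
Zfp618: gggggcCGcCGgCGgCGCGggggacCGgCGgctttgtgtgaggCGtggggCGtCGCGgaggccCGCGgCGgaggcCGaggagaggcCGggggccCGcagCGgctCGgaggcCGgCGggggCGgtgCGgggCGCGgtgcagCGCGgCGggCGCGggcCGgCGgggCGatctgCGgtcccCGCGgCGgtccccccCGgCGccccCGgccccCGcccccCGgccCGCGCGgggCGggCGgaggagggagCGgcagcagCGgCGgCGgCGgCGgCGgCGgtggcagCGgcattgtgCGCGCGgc
Zfp735: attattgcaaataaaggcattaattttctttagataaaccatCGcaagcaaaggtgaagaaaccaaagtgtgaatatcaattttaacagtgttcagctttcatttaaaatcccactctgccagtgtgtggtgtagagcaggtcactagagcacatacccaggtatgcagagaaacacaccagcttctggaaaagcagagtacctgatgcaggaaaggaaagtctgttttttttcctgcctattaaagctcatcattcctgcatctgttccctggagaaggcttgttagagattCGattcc

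Members reached 1 TPM at a share near that of all coding genes and were seldom abundant. At 1 TPM or more in both libraries were 107 of the 235 members (45.5%), against 39.1% of all genes with a protein_coding transcript and 50.9% of the other Zfp symbols. At 10 TPM or more in both were 17 members (7.23%), against 14.7% of all such genes. No count in either library was found for 24 members (10.2%), against 34.4%. With 3 counts as the limit that a count of 0 allows, the first quantification put them under 0.132 and 0.201 CPM (counts scaled to library size). That limit does not cover how reads were assigned. A second quantification, described below, gave 5 of the 24 a mean of 1 TPM or more. The other 104 members comprised 84 under 1 TPM in both libraries but not at 0 in both, 17 at 1 TPM or more in replicate 2 only and 3 in replicate 1 only. All coding genes leaned the same way. In replicates 1 and 2, 110 and 124 members and 8742 and 9146 of the 21901 coding genes reached 1 TPM. TPM of longer genes ran higher in replicate 2, as given above. The median over all 235 members was 0.79 TPM in replicate 1 and 1.19 in replicate 2, and over all genes with a protein_coding transcript 0.22 and 0.27. Among detected genes the order was the other way round, with 3.49 and 4.49 TPM for members and 6.62 and 8.70 for all. The whole family took 0.311% and 0.349% of the counts.

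**Figure D1:**
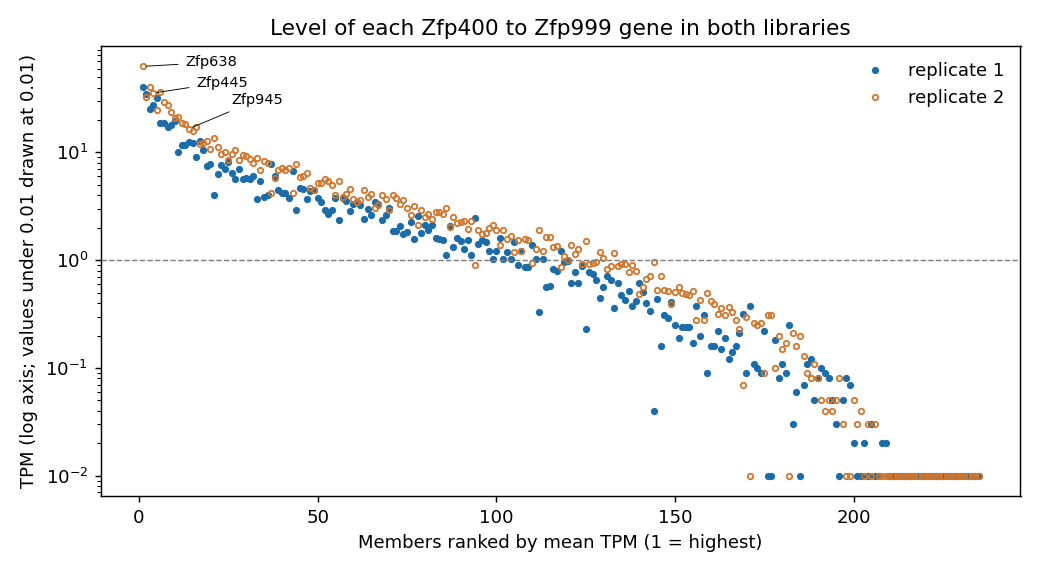
TPM of each of the 235 members in both libraries (log axis), ranked by mean; filled points are replicate 1, open points replicate 2, and values under 0.01 are drawn at 0.01. The highest member, Zfp638, sits at 40.4 and 62.8 TPM, and 107 members have both points at or above the dashed line at 1 TPM.

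Zfp638, a nuclear protein that binds DNA and RNA and takes part in silencing unintegrated retroviral DNA, was at the highest mean level of the first quantification, with 40.4 TPM in replicate 1 and 62.8 in replicate 2 (3590 and 2696 counts). It lies on chromosome 6 (chr6:83867109-83989550, plus strand) and has 2 matches to the classical finger pattern and no KRAB-like match. Its range met that of Zfp407, at 25.4 and 40.8 TPM, which carries 21 finger matches. Zfp800 was at 34.7 and 32.6 TPM. Zfp445, which protects imprinted methylation together with ZFP57, was at 27.4 and 35.5 TPM. Zfp703, a corepressor of the NET family amplified in breast cancer, was at 32.0 and 24.7 TPM and has no classical finger match. Zfp800 was above Zfp703 in both libraries, while the ranges of Zfp407 and Zfp445 overlapped each other and those of both, so the order of these 4 is only partly resolved.

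The next 5 by mean level had between 17.1 and 19.5 TPM in replicate 1 and between 20.8 and 36.5 in replicate 2. Zfp871 was at 18.95 and 36.5 TPM, Zfp655 at 18.8 and 29.3, and Zfp644, a partner of the histone methyltransferases EHMT1 and EHMT2, at 17.1 and 27.8. Zfp410, known for activating the chromatin remodeller gene Chd4, was at 17.98 and 23.8 TPM, and Zfp513 at 19.5 and 20.8. Only replicate 2 separated Zfp871 from Zfp513, since in replicate 1 Zfp513 was the higher of the pair. Zfp865, Zfp639, Zfp991, Zfp945 and Zfp516 completed the first 15, at 10 to 12.5 TPM in replicate 1 and 15.9 to 21.3 in replicate 2. Zfp513 overlaps Snx17 and Zfp865 overlaps Zfp784 on the opposite strand, and whether counting used strand is not given in the sources used here. Zfp865 also overlaps Gm44973, Ccdc106 and 4632433K11Rik on its own strand. Of its TPM, 9.2% and 4.88% lay in transcripts annotated protein_coding. In all, 82 members overlap an annotated gene on the opposite strand and 53 one on the same strand, and their values are less certain for that reason.

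At the other end, the members nearest the threshold were Zfp956, with 0.99 and 1.01 TPM and a mean of 1, and Zfp750, with 0.61 and 1.38 TPM and a mean just under it. Zfp764, at 0.97 and 1.09, and Zfp467, at 1.21 and 0.86, had means just above it. All 4 straddled 1 TPM between the libraries and so counted as not detected in both. The 24 members at 0 counts included Zfp423, a regulator of adipocyte and B cell precursors, Zfp536, a repressor of neuronal differentiation, X-linked Zfp711 and Zfp683, also called Hobit, of tissue-resident lymphocytes.

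Among members, a KRAB-like sequence went with a lower level than its absence. A match to at least 12 of 16 conserved positions of the KRAB box was found in the translated coding sequence of 146 members, and 89 had none. Detected in both libraries were 57 of the 146 (39.0%) and 50 of the 89 (56.2%), against 39.1% of all coding genes. The median was 0.465 TPM in replicate 1 and 0.89 in replicate 2 with the match, and 1.62 and 2.28 without. At 10 TPM or more in both libraries were 5 with it, namely Zfp445, Zfp871, Zfp655, Zfp991 and Zfp945, and 12 without. The 185 genes with a KRAB-like match that are no members were lower still, at medians of 0.40 and 0.69 TPM, with 61 detected (32.97%). Members at 0 counts were 16 of 146 with the match (11.0%) and 8 of 89 without (8.99%), against 34.4% of all coding genes.

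The number of fingers did not order the levels. Members had a median of 10 matches to the classical finger pattern, 11 with a KRAB-like match and 6 without. Detected were 26 of 49 members with up to 5 matches (53.1%) and 31 of 71 with 6 to 10 (43.7%). With 11 to 15 matches 31 of 73 were (42.5%), and with 16 or more 19 of 42 (45.2%). Over all coding genes the share was 39.1%. Across the 235 genes the correlation between finger matches and log2 TPM was -0.06 (Pearson) and -0.07 (Spearman), a description over genes that share both libraries. The largest arrays show the range: Zfp462, a chromatin protein with 33 matches, was at 0.33 and 1.92 TPM, and Zfp619, also with 33, at 1.21 and 1.23. Of the 3 members with 27, Zfp646 was at 6.97 and 10.2 TPM, Zfp423 at 0 counts and Zfp521 at 2 and 1 counts. No match was found in 13 members, among them Zfp703, its relative Zfp503 at 0.09 and 0.04 TPM, and Zfp414 at 3.76 and 5.15.

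Promoter CpG content went with detection. A promoter entry was found for 191 of 235 members by symbol, and where a gene had several, the one with the most CpG was used. CG reads the same on both strands, so each occurrence was counted once. With 25 or more CpG in 300 bases, as in the Zfp740 window above, 24 of 29 members were detected (82.8%), against 66.5% of all 4629 coding genes in that range. With 15 to 24 CpG, 28 of 58 were (48.3%), against 58.2% of 3914. With 5 to 14 CpG, 32 of 85 were (37.6%), against 31.3% of 3679. With 0 to 4 CpG, as in the Zfp931 and Zfp735 windows, 7 of 19 were (36.8%), against 8.60% of 4281.

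The spread within these ranges was wide. Zfp618, with 59 CpG, and Zfp641, with 26, had no count in either library, whereas Zfp710, with 4, was at 7.73 and 4.23 TPM. Across members, promoter CpG and log2 TPM correlated at 0.32 (Pearson) and 0.31 (Spearman, n = 191), and across all coding genes at 0.48 and 0.56 (n = 16503). The KRAB-like match and the CpG count moved together, with a median of 10 CpG in members with the match and 23 in those without. Their separate parts in the level were not tested.

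**Figure D2:**
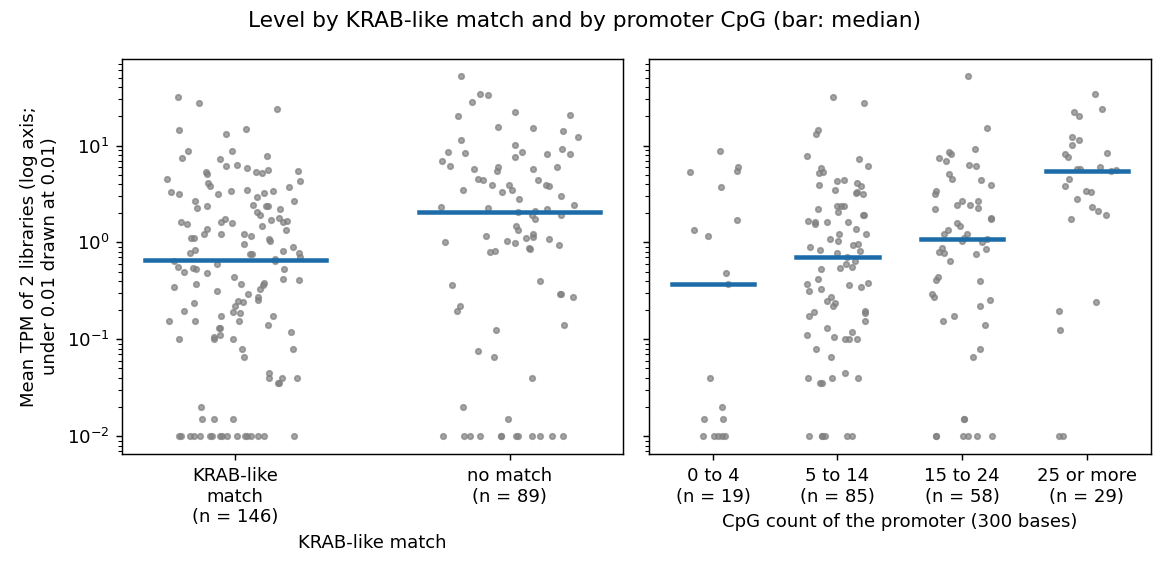
Mean TPM of both libraries (log axis; under 0.01 drawn at 0.01) for members with and without a KRAB-like match (left) and by CpG count of the 300-base promoter (right); each point is a gene and bars are medians. The 146 members with the match lie lower as a group, and the 29 members with 25 or more CpG hold few points under 1 TPM.

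Genomic clusters differed in how much of them was present. Runs of at least 5 members with gaps of at most 500 kb gave 11 clusters holding 100 members. Of these, 44 were detected (44%), and of the 135 members outside 63 were (46.7%). The 2 shares lay near each other and near the 39.1% of all coding genes. Medians were 0.76 and 0.98 TPM inside and 0.87 and 1.5 outside. Chromosome 7 carried the most members, 57, followed by chromosome 17 with 27 and chromosome 4 with 23.

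The largest cluster was 18 genes on chromosome 4 (chr4:145510759-147848366), all with a KRAB-like match. In the first quantification, genes without a count lay beside Zfp991, above 10 TPM in both libraries, in this cluster. Its medians were 0 TPM in replicate 1 and 0.015 in replicate 2, 7 of 18 members had no count in either library, and 5 were detected. Zfp991 was the highest, at 11.6 and 18.3 TPM, followed by Zfp993 at 4.03 and 13.6, Zfp992 at 6.31 and 11.2, Zfp984 at 2.60 and 4.08 and Zfp933 at 1.33 and 2.53. Zfp989, Zfp990, Zfp980, Zfp985, Zfp987, Zfp978 and Zfp600 were at 0 counts. Zfp981, Zfp534, Zfp988, Zfp982 and Zfp986 had at most 2 counts in a library, and Zfp979 had 8 and 9.29. In the second quantification Zfp990, Zfp989 and Zfp985 each had a transcript above 1 TPM in both libraries. A median of 68.3% of the 50-base words in these genes' transcripts also occur in other genes, so an assignment between neighbours is uncertain for most of them. Zfp933, the least affected at 1.05% shared, had 186 and 176 counts.

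The 14 clustered genes on chromosome 13 (chr13:67038596-67792512) had 4 detected and medians of 0.45 and 0.68 TPM. Zfp738 was the highest at 3.89 and 8.27 TPM, and Zfp708, which binds a retroviral repeat class in early development, the lowest at 0.08 and 0.05. The 14 on chromosome 17 (chr17:21383748-22867134) had 8 detected, from Zfp945 at 12.5 and 16.6 TPM to Zfp820 at 0.03 and 0.05. A further 8 on chromosome 17 (chr17:32765496-33110705) reached from Zfp871 at 18.95 and 36.5 TPM to Zfp763 at 0.11 and 0.09. Within these clusters, neighbours that all carry a KRAB-like match thus differed by more than the libraries did.

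The clusters with fewer KRAB-like matches had other medians. On chromosome 7 (chr7:127233061-127885996) 8 of 10 members were detected, at medians over the 10 of 1.74 and 2.40 TPM, and of the 4 members with the match Zfp747 and Zfp688 were detected. Levels ran from Zfp646 at 6.97 and 10.2 down to Zfp689 at 0.10 and 0.25. Elsewhere on the same chromosome (chr7:4915217-5053723) none of 6 members had a match and 3 were detected, at medians of 1.44 and 1.07 TPM. Levels there ran from Zfp865 at 10 and 21.3 TPM to Zfp784 at 0.25 and 0. Zfp784 overlaps Zfp865 on the other strand. In the other 5 clusters, 2 or 3 members each were detected, with Zfp715, Zfp746, Zfp869, Zfp568 and Zfp653 the highest and Zfp936, Zfp786, Zfp963, Zfp566 and Zfp599 the lowest.

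**Figure D3:**
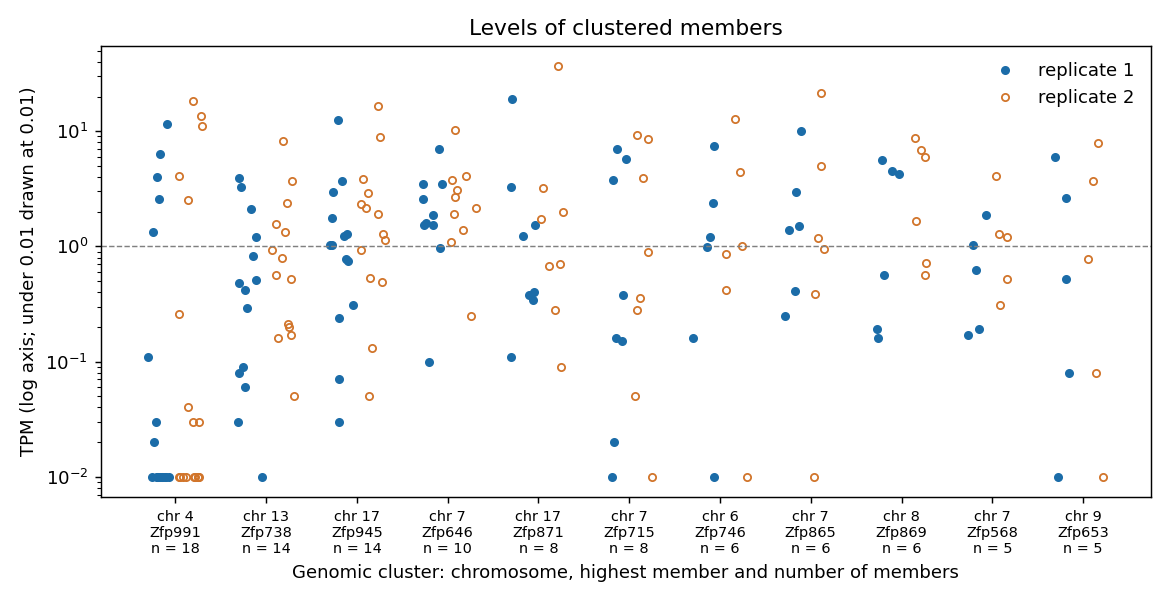
TPM (log axis; under 0.01 drawn at 0.01) of the 100 clustered members by cluster, filled points for replicate 1 and open points for replicate 2. Most points of the chromosome 4 cluster of 18 genes lie at the floor of the axis while 5 genes lie above 1 TPM in both libraries.

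Members with known roles in silencing and chromatin were split. Of a list of 13, 7 reached 1 TPM in both libraries, against 39.1% of all coding genes. The list had medians of 1.88 and 3.72 TPM. Zfp445 and Zfp644, described above, led it. Zfp592 was at 8.22 and 8.50 TPM and Zfp687 at 4.48 and 4.49, both partners of the chromatin reader ZMYND8, while the third such partner, Zfp532, was at 0.31 and 0.28. Among the KRAB proteins that silence retroelements, Zfp932 was at 6.05 and 5.79 TPM and Zfp809, which recognises the primer binding site of murine leukaemia virus, at 2.63 and 3.72. Zfp819 was at 0.15 and 0.36 TPM and Zfp708 at 0.08 and 0.05. Zfp568, the repressor of a placental Igf2 promoter, was at 1.88 and 4.07 TPM. Zfp827, which recruits the NuRD complex, was at 0.87 and 1.55 TPM, and Zfp711 had no count.

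Zfp462 shows how a TPM can part from its counts. It had 101 counts in replicate 1 and 53 in replicate 2, yet 0.33 and 1.92 TPM, with deposited intervals of 0.281 to 1.101 and 0.704 to 3.95. A 363-base transcript, Zfp462-204, was given 0 TPM in replicate 1 and 1.59 in replicate 2. The intervals overlap.

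Of 5 genes listed for ribosome and RNA functions, 4 were detected, against 39.1% of all coding genes. List medians were 3.75 and 4.07 TPM. Zfp598, the ubiquitin ligase that senses collided ribosomes, was at 10.6 and 12.2 TPM. Zfp622, a factor in maturation of the large ribosomal subunit, was at 7.86 and 10.7 TPM. Zfp830, a splicing-associated protein, was at 3.75 and 4.07 TPM and Zfp706 at 1.89 and 2.66. Zfp593, also of the large subunit pathway, was at 0.66 and 0.97 and missed the threshold in both libraries.

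Of 15 members known from differentiation and development, 6 were detected, a share near the 39.1% of all coding genes. List medians were 0.61 and 0.86 TPM. Zfp407 and Zfp703 led, followed by Zfp516, a factor of brown fat, at 12.2 and 15.9 TPM. Zfp746 (PARIS), a repressor of the coactivator gene Ppargc1a, was at 7.5 and 12.9 TPM, Zfp609 at 2.34 and 5.40 and Zfp608 at 3.07 and 2.94. Zfp467, which takes part in the choice between fat and bone, was at 1.21 and 0.86 TPM, and epidermal Zfp750 at 0.61 and 1.38. Oligodendrocyte Zfp488 was at 0.02 and 0.01 TPM, meiotic Zfp541 at 0.05 and 0.03, corneal Zfp469 at 0.09 and 0.10, Zfp503 at 0.09 and 0.04 and Zfp521 at 0.01 in both. Zfp423 and Zfp536 had no count. The fourth list was 17 genes named as a chromosome 4 cluster of KRAB genes, given above with the cluster. Of these, 4 were detected, against 39.1% of all coding genes, and 7 had no count, against 34.4%.

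Transcripts of most listed genes through which KRAB proteins repress were present. Of 29 cofactor genes, 25 reached 1 TPM in both libraries, against 39.1% of all coding genes, with medians of 5.18 and 8.97 TPM. The scaffold Trim28 was at 12.1 and 20.5 TPM and Setdb1 at 4.92 and 6.07. The highest were Daxx, a histone chaperone, at 91.5 and 73.8 TPM, Chd4 at 70.2 and 87.1 and Morc3 at 41.6 and 54.4. The lowest were Zfp57, the imprinting partner of Zfp445, at 0.30 and 0.11 TPM, Dnmt3b at 0.29 and 0.37 and Chaf1a at 0.46 and 0.27.

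In the first quantification, members higher in replicate 2 outnumbered those lower. Ratios here are of counts scaled by TMM (a library scaling that assumes most genes unchanged), replicate 2 over replicate 1, on the log2 scale, set so that the median of all coding genes is 0, for genes with a mean count of 50 or more. Of 120 such members, 18 were over 1.5-fold higher in replicate 2 (15%), against 3.37% of all 8756 coding genes, and 2 were over 1.5-fold lower (1.67%), against 8.02%. The median ratio of the members was 0.17, and 78 of 120 lay above the median of all genes. Both libraries are replicates of 1 condition, and starting RNA and replicate cannot be told apart.

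Zfp930 had the highest ratio, with 43 counts in replicate 1 and 63 in replicate 2 (log2 1.09, 95% counting interval 0.55 to 1.73). Zfp623 had 46 and 64 counts (1.02, 0.49 to 1.64), and Zfp931, whose promoter is shown above, 102 and 136 (0.98, 0.62 to 1.38). Zfp799 was at 0.84 and Zfp426, the fifth, at 0.76 with 198 and 225 counts. Zfp738, highest of the chromosome 13 cluster, followed at 0.76 with 619 and 701 counts. At the low end, Zfp628 had 172 and 68 counts (-0.74, -1.18 to -0.34) and Zfp768 261 and 114 (-0.60, -0.94 to -0.29), followed by Zfp703 at -0.56, Zfp513 at -0.55 and Zfp467 at -0.49. These intervals are exact binomial ones and cover counting error only. Of the 5 highest, all but Zfp623 carry a KRAB-like match, and none of the 5 lowest does.

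Split by that match, 14 of 63 members with it were over 1.5-fold higher (22.2%) and none lower, and of 57 without it 4 were higher and 2 lower. The 76 KRAB-like genes that are no members gave 18 higher (23.7%) and 2 lower. Of 44 members sharing no 50-base word with another gene, 3 were higher (6.82%) and 2 lower, with a median ratio of 0.059. Of 70 sharing up to 50% of words, 12 were higher (17.1%), with a median of 0.20. Of 6 sharing more, 3 were higher, with a median of 0.55. Over all coding genes 3.37% were higher. Shared sequence, the KRAB-like match and GC content moved together, and their separate parts were not tested. GC content moved with the ratio: transcripts had a median GC of 40.2% in members with the match, 52.6% in those without and 49.1% in all coding genes. Under 40% GC, 8 of 30 members were over 1.5-fold higher (26.7%), against 8.21% of the other coding genes. From 40 to 45% GC, 7 of 31 were (22.6%), against 4.58%. From 45 to 50% GC, 1 of 17 was (5.88%), against 3.60%, and from 50 to 55%, 2 of 19 were (10.5%), against 2.23%. At 55% GC or more, 0 of 23 were higher, against 1.32%, and 2 were lower (8.70%), against 12.96%. The median ratio of members was 0.34 in the lowest GC range and -0.13 in the highest, but 0.24 from 50 to 55%, above the 0.22 from 40 to 45%. With the trend of the ratio on GC content and length removed, an alternative chosen after seeing the data, 12 of 120 members were over 1.5-fold higher (10%), against 3.43% of the other coding genes, and 2 lower, and the median was 0.12.

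A second quantification of the same reads gave a different background. In it, 23 of 174 members were over 1.5-fold higher (13.2%), against 12.6% of the other coding genes, a share near the background, and 5 were lower (2.87%), against 8.86%. The median over members was 0.15. The split of 18 higher to 2 lower was 15 to 7 on the scale of log2(TPM + 0.1), where 5.22% of the other coding genes were higher and 9.73% lower. It was 9 to 3 on that of log2(TPM + 1), where 2.87% and 6.74% were. Without the filter on counts it was 49 to 15 of 211 members (23.2% and 7.11%), beside 10.4% and 14.4% of the other coding genes.

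**Figure D4:**
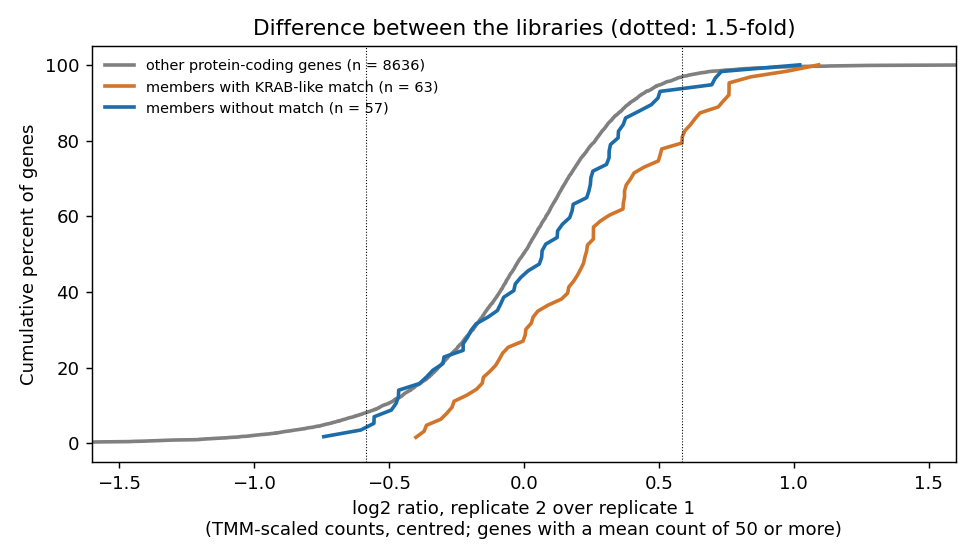
Cumulative percent of genes by log2 ratio of replicate 2 over replicate 1 (TMM-scaled counts, centred on all coding genes; mean count of 50 or more) for 63 members with a KRAB-like match, 57 without and the other coding genes; dotted lines mark 1.5-fold. The curve of members with the match lies to the right over most of its range, and 14 of them pass the upper line.

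The choice of quantification mattered for single members. Of 147 members that averaged 1 TPM or more in either quantification, 39 were over 2-fold higher in the second (26.5%), against 21.5% of all such coding genes, and 0 were over 2-fold lower, against 0.414%. Log2 TPM of both quantifications correlated at 0.83 over 235 members and at 0.91 over 21901 coding genes (Pearson, over genes). In 5 members at 0 in the first, the second gave a mean of 1 TPM or more.

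Zfp990 differed most, with 0 counts in both libraries in the first quantification and 30.4 and 50.5 TPM in the second. Nearly all of that level went to Zfp990-203, a 262-base processed transcript of which 76.1% of the 50-base words occur in other genes. Zfp989 had 0 counts and, in the second, 5.47 and 15.9 TPM, given to the 309-base Zfp989-201. Zfp979 was at 0.11 and 0.26 TPM against 6.13 and 12.4, most of it in the 1756-base processed transcript Zfp979-203. These 3 genes lie in the chromosome 4 cluster. Zfp488 was at 0.02 and 0.01 against 3.50 and 4.06 TPM, and Zfp791 at 0 and 0.08 against 2.66 and 4.10, in a gene that shares no 50-base word with another. Zfp991, detected in both, was at 11.6 and 18.3 TPM in the first and 38.4 and 64.3 in the second, which gave 31.3 and 54.6 to the 234-base Zfp991-202. By the second quantification, Zfp991, with a mean of 51.4 TPM, thus stood above Zfp638, with 50.1, and above Zfp445, with 20.9. In the other direction Zfp971, Zfp930, Zfp830, Zfp958 and Zfp658 were lower in the second by log2 differences of -0.82 to -0.74.

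**Figure D5:**
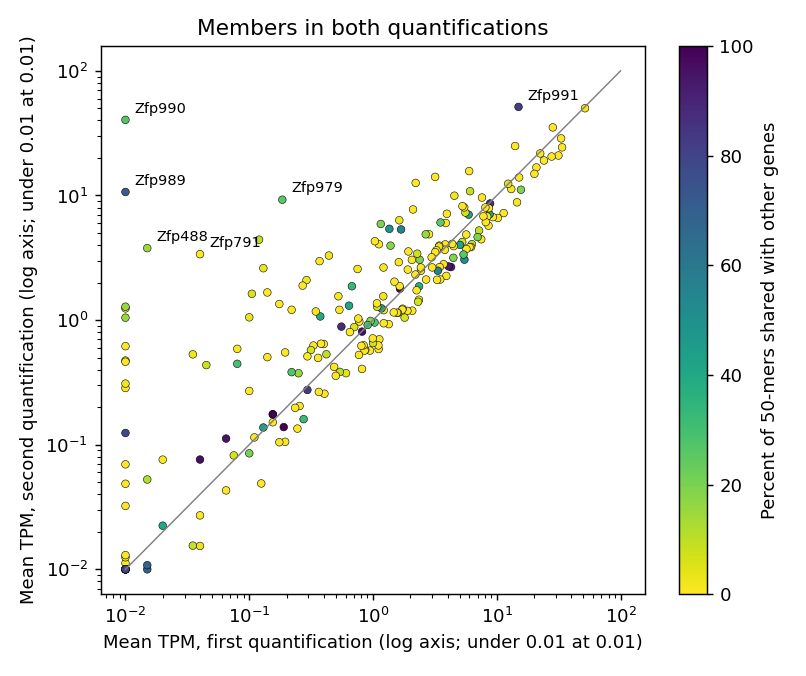
Mean TPM of each member in the first (x) and second (y) quantification, both axes log with values under 0.01 drawn at 0.01; colour gives the percent of 50-base words shared with other genes, and the line marks equal values. Zfp990, Zfp989, Zfp979, Zfp488 and Zfp791 stand far above the line.

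Shared sequence left the levels of some members uncertain. No 50-base word was shared with another gene in 83 members, of which 40 were detected (48.2%). Up to 50% of words were shared in 128, of which 60 were (46.9%). Over 50% were shared in 24, all with a KRAB-like match, of which 7 were (29.2%). Over all coding genes the share detected was 39.1%. In the chromosome 2 group shown above, Zfp966 was at 2.93 and 5.61 TPM, Zfp973 at 2.70 and 5.46, Zfp968 at 1.41 and 1.89 and Zfp965 at 0.45 and 1.18, with 90.0% to 96.3% of words shared. Zfp967 and Zfp969 share all their words with Zfp968, and both were given the same estimated counts, 0 in replicate 1 and 6.65 in replicate 2. The split of reads among these genes is uncertain. Zfp935, which also shares all its words, had 18.5 counts in replicate 1 and 0 in replicate 2. Without the 24 members over 50%, an alternative chosen after seeing the data, 100 of the remaining members were detected.

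Most of the level lay in transcripts annotated as coding. Among 112 members at a mean of 1 TPM or more with several annotated transcripts, the median share of TPM in protein_coding transcripts was 75.8% in replicate 1 and 82.5% in replicate 2, and among all such coding genes 64.0% and 65.3%. Members with a KRAB-like match were at 82.3% and 95.9%, and those without at 65.5% and 71.4%. These sets include genes, such as Zfp800, whose annotated transcripts are all protein_coding, so that their share is complete by annotation alone. The differences between these groups therefore mix annotation with measured levels, and the part of each was not tested. Transcripts annotated retained_intron took a median of 35.2% and 30.6% in the 57 members that have one, beside 35.2% and 34.3% in all such genes, and 50 of 57 members (87.7%) had 10% or more on average, against 88.1%.

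Single members lay far from those medians. Zfp945, first of its cluster, had 94.0% and 90.9% of its TPM in retained_intron transcripts, mostly in Zfp945-203. Zfp653 had 71.8% and 77.2%, Zfp746 70.4% and 69.8%, Zfp688 50.6% and 80.4% and Zfp523 62.6% and 66.5%. Zfp688 rests on 87 and 52 counts, and Zfp653 overlaps another gene on its own strand. In Zfp638, 58.8% and 56.4% of TPM went to retained_intron transcripts and 31.4% and 26.5% to protein_coding ones. In Zfp445 the retained_intron share was 31.8% and 21.4%.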

How the data were processed

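Total RNA of the nucleoplasmic fraction was measured in 2 libraries of 1 group. Per the file headers and accompanying notes, the authors made a first quantification from a transcriptome alignment (mm10, GENCODE M21) and a second straight from the 10 read files of each library; which aligner and quantifiers is not given in the sources used here. Deposited values in estimated counts are not normalized and need not be whole; they were rounded for TMM scaling. The deposited TPM are per length and sum to the same total over all features. The deposited FPKM served only as an alternative, and bounds of the TPM interval deposited by the authors (a signal) appear for Zfp462 alone.

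The first quantification supplied all values unless the second is named. Members and gene lists were chosen with earlier results of these data known, so no p-value or set test was made, and counts are read beside those of all genes with a protein_coding transcript. Finger matches, KRAB-like matches and 50-base words came from GENCODE M21 transcripts, promoters from the RefSeq table of GRCm38.p6. A classical finger match was a spacing pattern of 2 cysteines and 2 histidines. Ratios used edgeR 4.0.16 (TMM, prior count 2), with DESeq2 1.42.0 size factors as an alternative, in R 4.3.3 and Python 3.11.15; the ratio step was tested on simulated data. No molecular identifiers are named, so intervals and the limit of 3 counts cover counting error only.

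Named genes followed a rule: the 15 highest means, the 5 highest and 5 lowest ratios, the 5 largest differences between quantifications each way, the 5 highest retained_intron shares, the extremes of each cluster, the members nearest 1 TPM, those with most and fewest fingers, all members of 4 role lists, and 3 highest and 3 lowest cofactors. Genes named for shared sequence, promoter CpG, 0 counts, an identical value or a KRAB-like match in a cluster were chosen after their values were seen. Alternatives covered quantification, scale, thresholds, filters, cluster gap, prior count and single libraries.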

Additional observations from a re-analysis of the deposited data

How the results depend on the processing

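Of 66 alternative values, 43 stayed within the spread or 1.5 times the count, and 23 did not; the cause was not tested. The 107 of 235 members detected became 33 at a threshold of 5 TPM, a smaller share than the 4931 of all 21901 coding genes. At 1 TPM the share of members was the larger, beside 8565 of 21901. With 10 or more counts in place of TPM 164 members were detected, and the share over all coding genes was not computed. The median of 1.03 TPM (mean of both libraries) over all members became 1.36 in the second quantification, 3.38 after rescaling TPM to coding genes, 1.38 in FPKM and 3.50 over members at 1 TPM or more. With a KRAB-like match the median of 0.662 became 1.20 in the second quantification and 2.14 rescaled. Without the match, 2.06 became 6.84 rescaled and 2.74 in FPKM, so the order of the groups held in these settings. Inside clusters, 0.978 became 1.33, 3.28 and 1.30 in the same 3 settings, and 0.76 to 0.98 in single libraries; outside, 1.12 became 3.50 rescaled. The median ratio of 0.17 became 0.067 with TPM + 1. Beyond 1.5-fold in either direction were 20 of 120 members (16.7%), against 11.4% of all coding genes. They became 12 with TPM + 1, 5 of 58 at a mean count of 200 or more and 64 of 211 without a filter. These 5 were all higher (8.62%), against 1.80% of the other coding genes, and 0 were lower, against 6.22%. Shares of the other coding genes for TPM + 1 and for no filter are given above. The protein_coding share of 77.5% became 68.0% in the second quantification, 69.0% at 5 TPM or more and 75.8% to 82.5% in single libraries, and the retained_intron share of 33.4% became 37.0% in the second quantification. Leaving out a library leaves no ratio between libraries. No paired analysis was possible because there is only 1 group. At 1 TPM, replicate 2 rests on a median of 31 counts, which limits what can be said of members under that level.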
